A study of Mus musculus with 2 samples.

Results

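A set of 10 blood-brain barrier genes was followed in 2 total RNA libraries of mouse hippocampus: the junction and adhesion genes Cldn5, Ocln, Tjp1 and Pecam1, and the transporter genes Slc2a1, Mfsd2a, Slco1a4, Slco1c1, Abcb1a and Abcg2. They were taken by gene symbol from the gene and transcript tables. The rule used no measured value, but the genes were chosen with earlier results of these data known. They are 10 of 55536 annotated genes and hold 57 annotated transcripts. Both libraries belong to 1 group, labelled as a layer of the hippocampus of male B6CASTF1/J mice aged 25 days, an F1 hybrid between the C57BL/6J and CAST/EiJ strains. The labels name no treatment and no allele, so no condition was compared. The labels call the libraries biological replicates 1 and 2 and give them separate tissue samples but 1 donor identifier, so whether they came from separate animals is not settled and their spread may be technical. Both were prepared from 300 ng of RNA with synthetic ERCC spike-in RNAs added. Replicate 1 had 30635891 expected counts on annotated genes and replicate 2 had 35713471, of which the barrier genes took 0.0390% and 0.0376%. A count of 0 allows an expected count of up to about 3, at 95% confidence. That limit, like the intervals given with the ratios, covers counting error only.

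Brain capillaries differ from those of most organs in that their endothelial cells are sealed to each other by tight junctions, form few transport vesicles and lack pores. Solutes therefore cross through the cells, where uptake carriers bring in glucose, lipids and hormones and pumps of the ATP-binding cassette (ABC) family return many drugs to the blood. Signals from neural cells and pericytes, among them Wnt ligands acting through beta-catenin, are known to keep endothelial cells in this state. Some of the genes are not specific to endothelium: Tjp1 is also used by glial and epithelial cells, Slc2a1 also by astrocytes, and Slco1c1 also by astrocytes and the choroid plexus. In whole tissue, fewer cells of a type and less RNA per cell cannot be told apart.

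All 10 barrier genes were detected, with mean levels from 5.40 to 63.4 transcripts-per-million (TPM), values which divide counts by transcript length and can be compared between genes. The median over the 10 genes was 17.7 TPM (18.1 in replicate 1 and 17.2 in replicate 2), against 3.42 TPM over the 22015 nuclear protein-coding genes. Among those with a mean of at least 1 TPM, the median was 15.0 TPM, close to that of the 10. A mean of 1 TPM was reached by 10 of 10, against 58.9% of nuclear protein-coding genes, and a mean of 10 TPM by 6 of 10, against 36.7%. The order by mean was Tjp1, Slc2a1, Slco1c1, Cldn5, Slco1a4, Mfsd2a, Abcg2, Abcb1a, Pecam1 and Ocln. Neighbours whose replicates overlapped, and which were therefore not separated by their spread, were Cldn5 and Slco1a4, Slco1a4 and Mfsd2a, Abcg2 and Abcb1a, and Abcb1a and Pecam1. A second quantification of the same libraries, whose columns are those of kallisto where the first has those of RSEM, gave higher TPM for every one of the 10 genes; over all genes with a mean count of at least 100, its TPM were a median of 1.56 times those of RSEM. There, Slc2a1 drew level with Tjp1, Mfsd2a stood just above Slco1a4 with overlapping replicates, and Pecam1 passed Abcg2 and Abcb1a. In counts, kallisto exceeded or fell short of RSEM by over 2-fold for 0 of 10, against 2.41% of the 12714 genes compared.

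**Figure D1:**
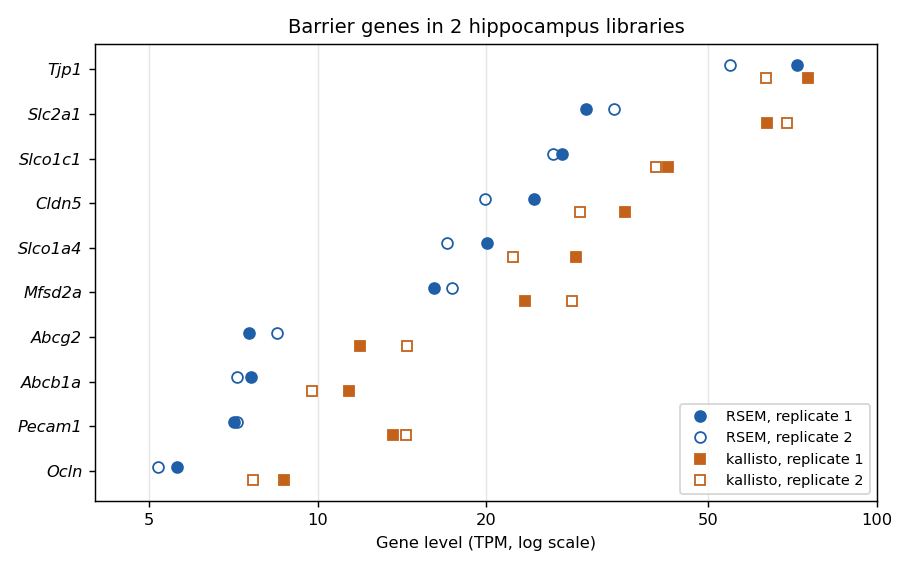
Gene level in TPM on a log axis for the 10 barrier genes, ordered by their mean in the RSEM table. Circles are RSEM and squares kallisto, filled for replicate 1 and open for replicate 2; Tjp1 has the highest and Ocln the lowest mean in both tables, and the kallisto values lie right of the RSEM values of the same replicate for all 10 genes.

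Among the junction genes, Cldn5 and Ocln code for tight junction strand proteins that span the membrane. Cldn5 encodes claudin-5, the main claudin of brain endothelium (chromosome 16, 18776847 to 18778262, plus strand; all positions are of mm10), and had 24.4 TPM in replicate 1 and 19.9 TPM in replicate 2, a mean of 22.2 ± 3.16 (SD, n = 2), from 669 and 642 expected counts. Its gene has 1 annotated transcript, of 1 exon, so no reads had to be shared out among isoforms. Occludin, the product of Ocln (chromosome 13, 100496507 to 100552718, minus strand), was the lowest of the 10 at 5.61 and 5.19 TPM (5.40 ± 0.297). Cldn5 thus stood at 4.35 times Ocln in replicate 1 and 3.84 times in replicate 2. All Ocln TPM of both tables lay on 3 models with the same coding region of 1563 bases, Ocln-201, Ocln-202 and Ocln-205, which differ outside it. RefSeq lists 2 starts for the gene: models that begin within 100 bases of the downstream start, at 100552498, held 82.0% and 73.4% of its TPM, and those at the upstream start, at 100552718, held 18.0% and 26.6%. Kallisto gave the downstream start 95.7% and 87.9%.

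Tjp1 encodes ZO-1, the scaffold that ties claudins and occludin to actin (chromosome 7, 65296165 to 65527781, minus strand). It was the highest of the barrier genes, with 72.0 TPM in replicate 1 and 54.7 TPM in replicate 2 (63.4 ± 12.2), from 4496 and 4925 counts, and ranked 1547 of 22015 protein-coding genes. Most of the difference in TPM between the replicates lay in short models. The 4 annotated models under 1000 bases, each a fragment of the gene or without a coding region, held 57.3% and 46.4% of its TPM but only 8.08% and 5.77% of its counts. One of them, Tjp1-205, an incomplete coding model of 551 bases, held 25.3% and 25.9% of TPM and led in RSEM in replicate 1. Another, the retained-intron model Tjp1-204, stood at 14.3 TPM in replicate 1 and 4.34 TPM in replicate 2 and was listed at 0 by kallisto in both. The models of 1000 bases or more summed to 30.7 and 29.3 TPM (48.0 and 44.3 in kallisto), against 30.2 and 33.9 TPM for all models of Slc2a1. Its 2 complete coding models differ, among other places, in exon 20 of Tjp1-202, a stretch known as the alpha domain of ZO-1, shown because models with and without it were both present. In the line below, capitals are that exon of 240 bases (chr7:65314093-65314332, minus strand), a multiple of 3 that keeps the reading frame, and the lower-case letters are the 20 bases on either side in the spliced transcript.
Tjp1-202, exon 20: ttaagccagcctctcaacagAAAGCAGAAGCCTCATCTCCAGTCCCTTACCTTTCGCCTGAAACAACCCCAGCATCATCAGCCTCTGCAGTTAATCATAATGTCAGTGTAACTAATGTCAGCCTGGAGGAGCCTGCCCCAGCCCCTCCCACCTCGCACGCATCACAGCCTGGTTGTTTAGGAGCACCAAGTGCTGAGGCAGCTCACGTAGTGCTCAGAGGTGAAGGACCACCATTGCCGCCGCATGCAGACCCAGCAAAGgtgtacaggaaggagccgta
Models with this exon held 48.9% and 49.9% of the TPM of coding or decay-annotated models that span it (15.0 and 14.6 TPM with the exon, 15.7 and 14.7 TPM without). Kallisto put the share lower, at 36.1% and 34.8%, and the gap between the tables was wider than that between the replicates. The models also differ in their ends, so this share rests in part on reads from elsewhere in the transcript.

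Pecam1, an adhesion molecule of endothelial cell contacts that platelets and leukocytes also carry, lies on chromosome 11 (106654217 to 106750628, minus strand). It had 7.09 and 7.19 TPM (7.14 ± 0.0707), the closest pair of TPM values among the 10 genes. Its counts, 430 and 550, were not as close. Scaled for library size, their log2 ratio of replicate 1 over replicate 2 was the lowest of the 10, at -0.165. In counts, the tables disagreed more on it than on any other barrier gene, with 1.26 times as many in kallisto as in RSEM. A retained-intron model, Pecam1-208, held 27.0% and 16.4% of Pecam1 TPM in kallisto but 2.26% and 2.51% in RSEM. They also named different leading isoforms: Pecam1-202 in RSEM, with 49.4% and 36.9% of TPM, and Pecam1-204 in kallisto, with 32.2% and 38.3%. Pecam1 messages are known to be spliced in alternative ways in the part that codes for the cytoplasmic tail, and 2 exons there are shown in capitals with 20 flanking bases in lower case. The first has 57 bases (chr11:106671742-106671798, minus strand), is present in both leading models and lacking in Pecam1-203, and keeps the frame; the second has 23 bases (chr11:106662002-106662024, minus strand), is present in Pecam1-204 and lacking in Pecam1-202, and shifts the frame.
Pecam1-202, exon 14: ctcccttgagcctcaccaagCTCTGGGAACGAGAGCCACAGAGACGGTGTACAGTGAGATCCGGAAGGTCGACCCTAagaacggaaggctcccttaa
Pecam1-204, exon 15: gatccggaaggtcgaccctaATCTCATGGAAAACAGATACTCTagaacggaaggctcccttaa
The 57-base exon was in models with 77.0% and 66.4% of spanning TPM (88.0% and 81.9% in kallisto). The 23-base exon was in 20.1% and 28.6% by RSEM but in 52.3% and 60.2% by kallisto, so which form prevailed depended on the table.

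**Figure D2:**
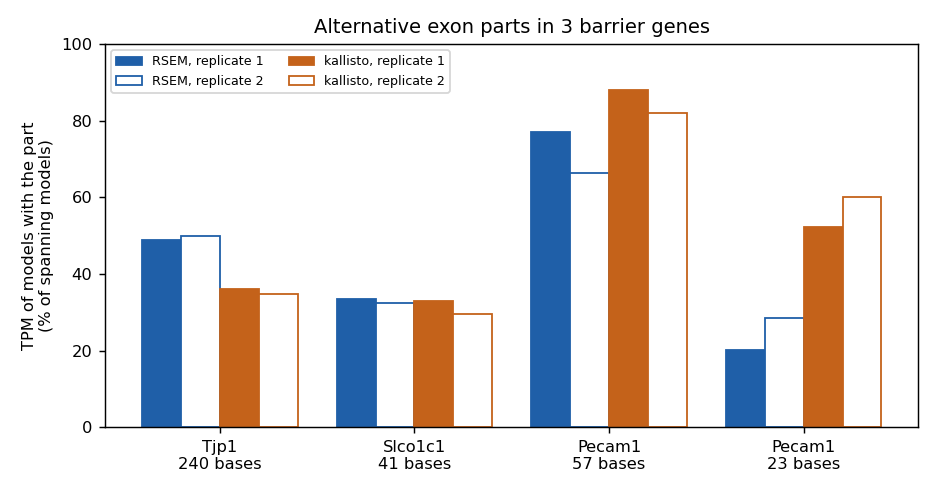
Share of TPM, in percent of all coding or decay-annotated models that span the place, held by models with each alternative exon part, for Tjp1, Slco1c1 and Pecam1. Bars are single replicates, filled for replicate 1 and open for replicate 2; the 41-base part of Slco1c1 stays between 29.7% and 33.5% in every bar, while the 23-base exon of Pecam1 lies between 20.1% and 60.2%.

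Slc2a1 and Mfsd2a, both on chromosome 4, bring nutrients across the endothelial cell. Slc2a1 encodes GLUT1, the glucose carrier of the barrier (119108711 to 119137983, plus strand), and had 30.2 TPM in replicate 1 and 33.9 TPM in replicate 2 (32.1 ± 2.63), from 1757 and 2187 counts. It stood at 0.615 and 0.653 times Slc2a3, which encodes the neuronal glucose carrier GLUT3. The complete coding model Slc2a1-201 held 65.8% and 55.8% of its TPM, and Slc2a1-204, annotated as a target of nonsense-mediated decay, held 33.1% and 39.4%. Both forms were also seen by kallisto (36.4% and 35.9% for Slc2a1-201, 33.7% and 30.2% for Slc2a1-204). There a further 27.0% and 30.4% fell on Slc2a1-203, an incomplete model of 633 bases that RSEM listed at 0 and 0.320 TPM. By complete coding models alone, Slc2a1 stood at 19.9 and 18.9 TPM, against 23.1 and 24.8 TPM in kallisto.

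Mfsd2a encodes the carrier of lysophospholipids with docosahexaenoic acid, which is also known to restrain vesicle formation in brain endothelium (122946850 to 122961188, minus strand). It had 16.2 and 17.4 TPM (16.8 ± 0.898), with 95.4% and 93.3% on the complete model Mfsd2a-201. Plvap, which forms the diaphragm of endothelial pores and is low in mature barrier vessels, had 2.87 and 3.31 TPM, so Mfsd2a was 5.63 and 5.26 times as high.

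Slco1c1 and Slco1a4 are organic anion carriers from 1 cluster on chromosome 6; the first (141524368 to 141570177, plus strand) encodes the thyroxine carrier OATP1C1 and the second (141805440 to 141856199, minus strand) OATP1A4, which moves bile acids, steroid conjugates and some drugs. Slco1c1 had 27.4 and 26.4 TPM (26.9 ± 0.707), from 1460 and 1667 counts, and Slco1a4 20.1 and 17.0 TPM (18.6 ± 2.17), from 1111 counts in each. Slco1c1 was thus higher in both libraries, by 1.36 and 1.55 times, and kallisto gave 1.47 and 1.80 times. Most Slco1c1 RNA was assigned to models annotated for nonsense-mediated decay: 70.3% and 75.0% of its TPM, against 26.6% and 23.2% on complete coding models. Slco1c1-202 alone held 64.4% and 66.4% of TPM and led in both tables. It lacks the first 41 bases of exon 11 of the coding model Slco1c1-201 (chr6:141559741-141559781, plus strand), shown in capitals, and its coding region of 1407 bases is shorter than the 2145 bases of Slco1c1-201.
Slco1c1-201, start of exon 11: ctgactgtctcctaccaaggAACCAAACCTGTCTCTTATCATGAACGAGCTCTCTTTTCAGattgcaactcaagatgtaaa
Models with the 41 bases held 33.5% and 32.5% of spanning TPM, and 33.0% and 29.7% in kallisto, so the same split came out of both programs and both libraries. Complete coding models of Slco1c1 summed to 7.28 and 6.13 TPM, of which Slco1c1-206 made up 5.22 and 3.39. For Slco1a4, the complete model Slco1a4-203 held 61.5% and 64.3% of TPM and 86.3% and 89.8% of counts, and most of the rest of the TPM, 30.6% and 31.5%, lay on the 622-base fragment Slco1a4-202. The retained-intron model Slco1a4-204 took 7.69% and 4.01% of counts. Kallisto also gave 13.7% and 15.8% of TPM to Slco1a4-201, which has the coding region of Slco1a4-203 and was listed at 0 by RSEM. By complete coding models, Slco1a4 at 12.4 and 10.9 TPM was therefore above Slco1c1, the reverse of the gene-level order, and kallisto gave 20.8 and 18.4 TPM for Slco1a4 against 9.22 and 7.06 for Slco1c1.

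The efflux pumps Abcb1a and Abcg2 were among the lower genes. Abcb1a encodes the P-glycoprotein of rodent brain endothelium (chromosome 5, 8660077 to 8748575, plus strand) and had 7.60 and 7.17 TPM (7.39 ± 0.304). In RSEM all of it was placed on Abcb1a-201 (91.8% and 100% in kallisto), a message of 4997 bases and 28 exons. Abcb1b, a close relative with shared sequence, had 1.57 and 2.35 TPM on only 68.2 and 84.8 counts, below the minimum of 100 used for replicate ratios. Abcb1a was 4.84 and 3.05 times as high in TPM (5.17 and 3.96 times in kallisto). In counts, not divided by length, Abcb1a was 11.4 and 10.1 times as high. How reads are split between the 2 is uncertain. The deposited posterior SD of the Abcb1a count was nevertheless only 3.06 and 3.18 on 775.4 and 859.5 counts. Abcg2 encodes BCRP, which pumps out many drugs and conjugates (chromosome 6, 58584523 to 58695676, plus strand), and had 7.54 and 8.47 TPM (8.01 ± 0.658) on only 258 and 323 counts. The levels of Abcb1a and Abcg2 overlapped between replicates. Annotated genes of the opposite strand share exon bases with Slc2a1 (Gm12868) and Abcb1a (Gm42686), and both had 0 counts.

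Abcg2 has 3 RefSeq starts, and its RNA was assigned unevenly among them. The 6 models that begin within 100 bases of the third start, at 58640546, held 70.6% and 76.3% of its TPM and 73.8% and 72.9% of its counts (83.9% and 74.6% of TPM in kallisto). The only model at the second start, at 58596672, is Abcg2-201, with 6.36% and 6.14% of TPM; being 5717 bases long, it took 21.6% and 22.3% of counts. The first start, at 58584533, had 0 counts in replicate 1 and 1 in replicate 2, while kallisto gave its models 6.46% and 15.9% of TPM. The other 4 models begin at none of these starts and held 23.0% and 17.0% of TPM on 4.61% and 4.49% of counts; among them was Abcg2-210, an incomplete model of 348 bases with 18.8% and 12.6% of TPM. Abcg2-201 and Abcg2-202, the leading model of the third start, have the same coding region of 1971 bases. The promoters are printed so that the leading start can be set beside the others, from 250 bases before to 50 bases after each start (RefSeq, GRCm38.p6, plus strand): chr6:58584283-58584582, chr6:58596422-58596721 and chr6:58640296-58640595. Capitals mark 3 short motifs, searched on both strands with overlaps allowed: TATAAA for the TATA box, CCAAT for the CAAT box and GGGCGG for the GC box.
Abcg2, the first start: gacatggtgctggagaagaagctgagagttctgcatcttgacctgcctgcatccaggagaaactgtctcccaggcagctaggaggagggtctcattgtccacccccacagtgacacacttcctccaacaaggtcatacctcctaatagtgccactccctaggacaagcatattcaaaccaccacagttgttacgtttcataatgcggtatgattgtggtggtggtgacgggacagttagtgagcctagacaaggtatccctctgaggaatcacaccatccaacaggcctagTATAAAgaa
Abcg2, the second start: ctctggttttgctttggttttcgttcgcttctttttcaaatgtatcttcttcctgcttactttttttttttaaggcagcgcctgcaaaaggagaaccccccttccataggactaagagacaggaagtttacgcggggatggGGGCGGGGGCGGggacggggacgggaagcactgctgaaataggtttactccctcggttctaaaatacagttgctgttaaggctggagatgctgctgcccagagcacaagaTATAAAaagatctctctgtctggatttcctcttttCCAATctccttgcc
Abcg2, the third start: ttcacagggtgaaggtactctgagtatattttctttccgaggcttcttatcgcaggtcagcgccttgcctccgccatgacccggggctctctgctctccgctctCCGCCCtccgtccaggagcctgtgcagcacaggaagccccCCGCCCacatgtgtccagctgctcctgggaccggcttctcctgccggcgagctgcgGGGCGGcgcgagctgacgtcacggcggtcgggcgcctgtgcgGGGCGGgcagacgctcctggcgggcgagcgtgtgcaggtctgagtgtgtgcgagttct
The third start had a GC content of 67.0% and 28 CG pairs, against 50% and 3 at the first and 48.0% and 10 at the second; the median over 32851 mouse promoters in the table was 52.7% and 7. It held the GC box 4 times and neither of the other motifs in this window, whereas the second held the TATA box 1 time, the CAAT box 1 time and the GC box 2 times, and the first held the TATA box 1 time. Of all promoters in the table, 13.6% held the TATA box, 37.4% the CAAT box and 35.7% the GC box. A match is a match of letters only. All TATA and CAAT box matches in these 3 windows lay in the 50 bases after the start, not before it. Promoters were found for 9 of the 10 genes; those of Tjp1, Slc2a1, Ocln and Mfsd2a had GC contents between 60.3% and 68.0%, and those of Slco1c1, Slco1a4 and Abcb1a between 40.3% and 42.0%. The RefSeq start of Abcb1a lay 92986 bases from that of Abcb1a-201, so its window does not describe that model.

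**Figure D3:**
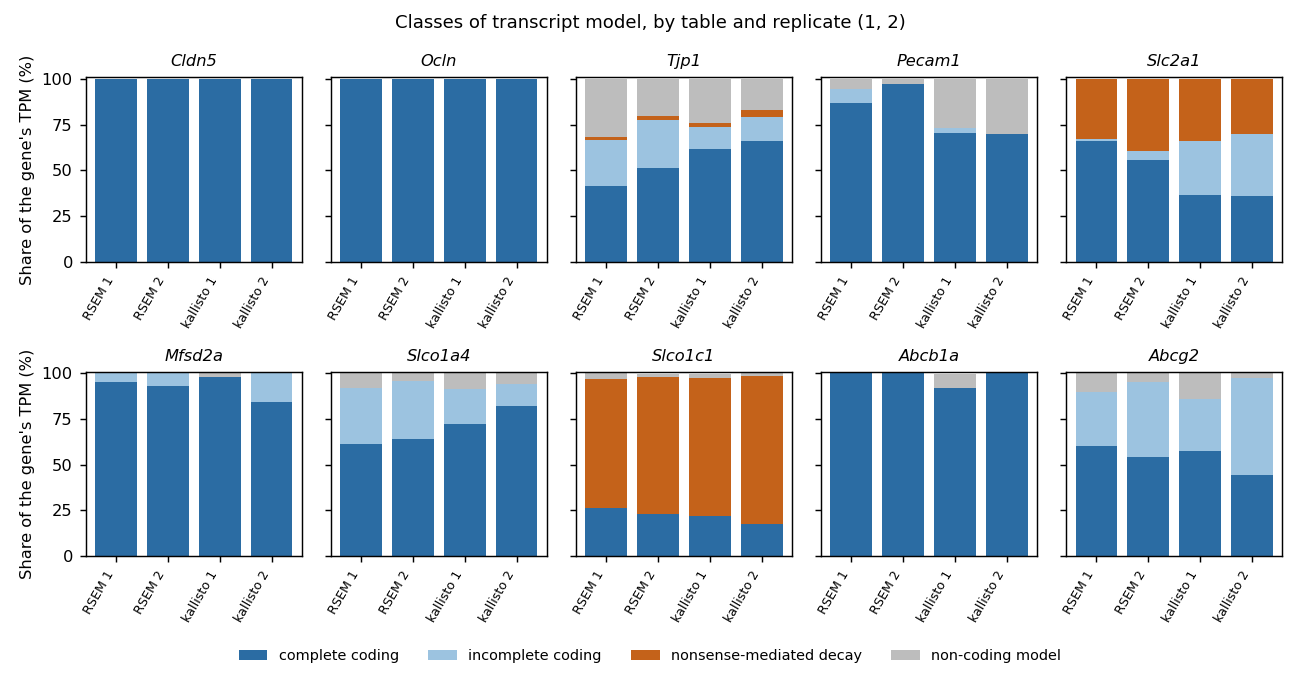
Share of each gene's TPM, in percent, by class of transcript model, for RSEM and kallisto and for replicates 1 and 2. Complete coding models fill at least 91.8% of Cldn5, Ocln and Abcb1a in every bar, decay-annotated models fill 70.3% and 75.0% of Slco1c1 in RSEM, and incomplete or non-coding models are largest in Tjp1, Abcg2 and, in kallisto, Pecam1 and Slc2a1.

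Across the 10 genes, the leading transcript held at least 50% of TPM in 8 by RSEM and in 6 by kallisto. The same transcript led in both RSEM replicates for 9 genes and in all tables for 8, the exceptions being Tjp1 and Pecam1. Shares over all genes were not computed for these counts, so they describe the 10 genes only. Cldn5, with 1 annotated transcript, meets each of them by construction. The incomplete Abcg2 model Abcg2-207 held 5.83% and 28.5% of TPM, but on 4.59 and 29.7 counts; kallisto listed it at 0 and gave 28.3% and 37.0% to another incomplete model, Abcg2-213. The complete coding models of Abcg2 summed to 4.54 and 4.57 TPM.

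Between the replicates, none of the barrier genes moved by as much as 2-fold. On counts scaled by trimmed mean of M-values (TMM) factors, 0 of 10 were over 2-fold apart, against 0.778% of the 12719 genes with a mean count of at least 100. The log2 ratio of replicate 1 over replicate 2 was positive for 5 of 10 genes and negative for 5, against 39.3% positive among the genes tested, with a median of 0.02 against -0.04 over all genes tested. Scaled to the spike-ins, the median of all genes tested shifted to 0.17, and the ratio was positive for all 10 barrier genes (median 0.23); ratios are therefore read relative to all genes. Cldn5 had the highest ratio, 0.25 (95% counting interval 0.09 to 0.41), then Slco1a4 at 0.19 (0.07 to 0.31) and Ocln at 0.16 (-0.07 to 0.38). Abcb1a at 0.04 and Slco1c1 at -0.002 were close to 0. At the other end, Slc2a1 stood at -0.13 (-0.22 to -0.04), Mfsd2a at -0.13 (-0.28 to 0.02), Abcg2 at -0.13 (-0.38 to 0.11) and Pecam1 at -0.17 (-0.35 to 0.02). The intervals of Cldn5, Slco1a4 and Slc2a1 left out 0. The share of all genes tested whose interval does so was not computed, so their number has no background to be set against. Set against the median of all genes tested, -0.040, the interval of Slc2a1 (-0.218 to -0.035) took that median in. Those of Cldn5, Slco1a4 and Tjp1 lay above it. Under spike-in scaling Slco1a4 and Slc2a1 were both positive (0.40 and 0.08). With 1 library on each side, these ratios compare the libraries and not conditions. Tjp1, whose TPM were the farthest apart in absolute terms, had a count ratio of only 0.06 (-0.001 to 0.12).

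Marker genes of several cell types moved with the libraries too, and their part in these ratios was not tested. Of 16 pan-endothelial markers with enough counts, 15 were higher in replicate 1 (12 in kallisto), against 39.3% of all genes tested, with a median log2 ratio of 0.14 and a range of -0.01 to 0.27; their sum was 165 TPM in replicate 1 and 149 in replicate 2. Mural cell markers, of pericytes and smooth muscle, were higher in replicate 1 for 8 of 9 (6 in kallisto; median 0.10; sums 93.0 and 84.3 TPM). The 6 neuron markers were all lower in replicate 1 under TMM (median -0.14; sums 2954 and 3172 TPM) but all higher under spike-in scaling (median 0.06). All 5 erythroid genes were lower in replicate 1 under both (medians -0.51 and -0.30; sums 756 and 1119 TPM). Choroid plexus markers summed to 57.8 and 71.1 TPM, of which Ttr made up 47.9 and 61.0; Kl had 3.77 and 3.78 TPM, and Kcne2, the lowest of the 12, had 0.160 and 0.210. Platelet and leukocyte markers, which could bear on Pecam1, summed to 2.88 and 3.68 TPM, with Ptprc at 1.31 and 1.28, Pf4 at 0.960 and 0.480, and Ly6g at 0 in both. Astrocyte markers summed to 1902 and 1892 TPM, oligodendrocyte markers to 2233 and 2356, microglia markers to 154 and 158, perivascular fibroblast markers to 50.6 and 60.5 and ependymal markers to 14.4 and 11.5. Hippocampal field markers were present as labelled, among them Prox1 of granule cells at 52.8 and 41.5 TPM and Wfs1 of CA1 at 81.2 and 72.9 TPM.

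**Figure D4:**
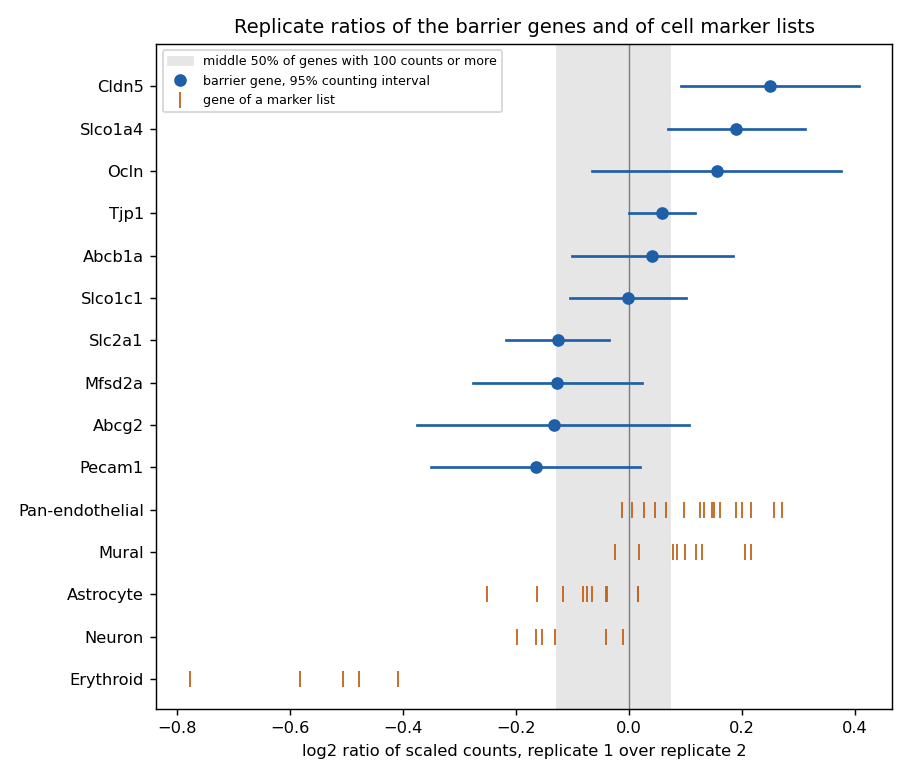
Log2 ratio of scaled counts, replicate 1 over replicate 2, for the 10 barrier genes (points with 95% counting intervals) and for single genes of 5 marker lists (ticks); the grey band is the middle 50% of all genes with a mean count of at least 100. Cldn5, Slco1a4 and Ocln lie right of the band, Abcg2 and Pecam1 just left of it, pan-endothelial and mural markers mostly right of 0 and erythroid genes far left; scaling to the spike-ins would move all points right by the same amount, and the neuron markers past 0.

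Other genes were set beside the 10 by lists chosen for their function, and these values are descriptions of level in whole tissue. The lists are not limited to the barrier: they hold Cldn11 of myelin and the neuronal carrier Slc2a3. Of 24 other junction proteins, 18 reached 1 TPM and 8 reached 10 TPM, with a median of 3.83. Ctnnb1, which encodes the adherens junction and Wnt signal protein beta-catenin, had 258 and 273 TPM; Cldn11, the claudin of myelin, had 116 and 135, and the scaffold Afdn 49.1 and 39.8. Cdh5, the cadherin of endothelial junctions, had 4.38 and 4.06 TPM and was named after its values were seen. Cldn5 was 2.10 and 1.60 times as high as Cldn12, another claudin. Marveld3, a relative of occludin, was lowest at 0.0400 and 0.0900 TPM.

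The 16 other uptake carriers had a median of 13.6 TPM, with Slc3a2, the heavy chain of amino acid exchangers, at 66.0 and 69.7, the taurine carrier Slc6a6 at 71.6 and 55.6, and Slco1a5, a close relative of Slco1a4, listed at 0 and 0.0200 TPM. Of 6 other efflux pumps, Abcc5 at 95.4 and 80.8 TPM was the only one above 10; Abcc1 had 7.03 and 6.22, Abcc4 3.29 and 2.51, Abcb1b 1.57 and 2.35, Abcc6 1.84 and 1.29 and Abcc3 1.27 and 0.740. Among receptors that carry proteins across the cell, Lrp1 had 134 and 115 TPM, Lrp8 47.0 and 40.4, the transferrin receptor Tfrc 28.6 and 28.4, Insr 22.4 and 17.1, and Ager 0.400 and 0.230. Genes of caveolae and the diaphragm had a median of 6.23 TPM and were headed by Cav1 at 13.6 and 9.74 TPM and Cav2 at 9.68 and 11.2, with Cavin3, Cavin1 and Cavin2 between 2.31 and 6.77. All 15 genes of the Wnt list reached 1 TPM, among them the co-receptor Lrp6 (20.6 and 20.3 TPM) and the target Apcdd1 (21.1 and 19.4), with Tcf7 lowest (1.43 and 1.59). Endothelial transcription factors had a median of 1.96 TPM, with Ppard at 9.74 and 10.5, Sox18 at 6.31 and 5.08, Ets1 at 5.14 and 4.81 and Tal1 lowest at 0.650 and 0.550.

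Pan-endothelial markers had a median of 5.71 TPM, led by Egfl7 (29.0 and 26.4), Ly6c1 (22.5 and 20.5) and Itm2a (17.6 and 17.3), with Icam2 lowest (1.21 and 1.36). Against Pecam1 in the same library, Tjp1 was 10.2 and 7.61 times as high, Slc2a1 4.26 and 4.72, Slco1c1 3.86 and 3.67, Cldn5 3.44 and 2.77, Slco1a4 2.83 and 2.37 and Mfsd2a 2.28 and 2.42 times. Abcb1a and Abcg2 lay close to Pecam1, at 1.07 and 0.997 times and at 1.06 and 1.18 times, and Ocln lay below it at 0.791 and 0.722 times. In kallisto, Tjp1 was only 5.51 and 4.41 times as high as Pecam1, and Abcb1a was 0.835 and 0.679 times Pecam1.

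**Figure D5:**
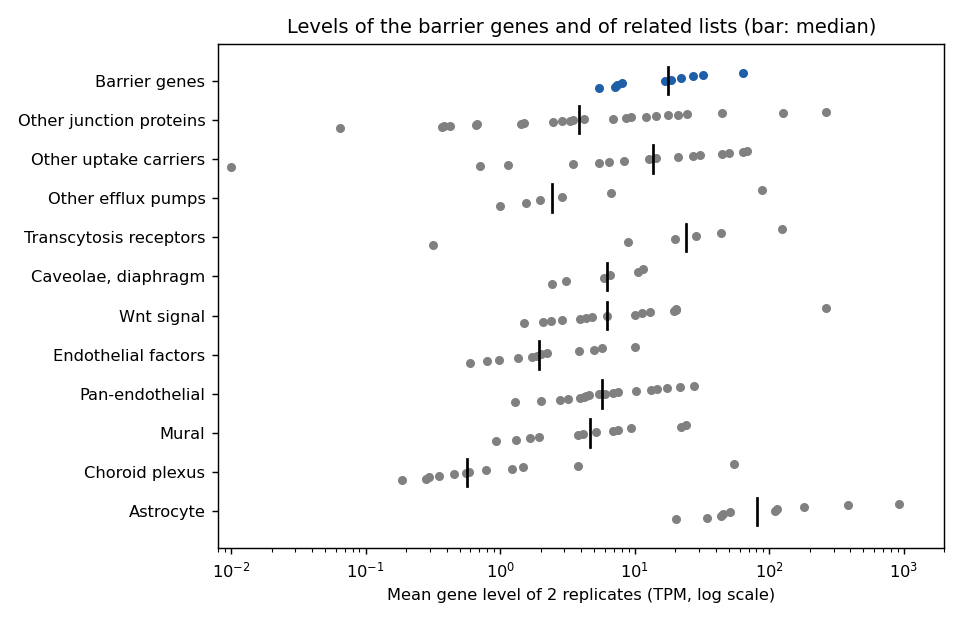
Mean TPM of 2 replicates on a log axis for the 10 barrier genes (blue) and the genes of 11 related lists (grey), with the median of each as a bar. The barrier genes lie between 5.40 and 63.4 TPM with a median of 17.7, against medians of 3.83 for other junction proteins, 5.71 for pan-endothelial markers and 0.570 for choroid plexus markers.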

How the data were processed

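The 10 genes, the 19 related lists and the measures were chosen with earlier results of these data known. All tables refer to mm10 with the M21 release of GENCODE, per the deposited text notes, which also derive the gene table and 1 transcript table from a transcriptome alignment and the other transcript table from reads directly. Their columns are those of RSEM and of kallisto, per the file headers. Aligner and versions: not given in the sources used here. The authors deposited expected counts, which share out reads among features, and TPM, which divide them by effective length and scale to a fixed total. A deposited score, the posterior SD of the count, measures the uncertainty of that sharing. Deposited percent shares (of a gene's TPM) were recomputed here. How reads of the CAST/EiJ allele fare against mm10 was not tested.

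Kallisto values were summed per gene. The 26248 numbered rows that name no gene held 6 and 2 counts and, like the 97 spike-in and phage rows, stayed out of library sizes and ratios. With 1 group there was nothing to test and no p-value is given. Levels are TPM per replicate and mean ± SD. Replicate ratios used expected counts rounded to whole numbers, scaled by TMM factors (edgeR 4.0.16 in R 4.3.3), a prior count of 0.5 and a mean count of at least 100; 95% intervals are Clopper-Pearson intervals given both counts. On simulated counts with counting (Poisson) error only, 192 of 192 genes changed 3-fold were called past 2-fold and 0 of 12510 unchanged ones. This checks the ratio step and cannot measure false calls in real libraries, whose spread was not simulated. The rule for names took all 10 genes, their transcripts with at least 5% of TPM in either table and, per list, the 3 highest and the lowest; the text names part of these, and gives some marker lists by their sums only. Exon and promoter sequences came from GENCODE M21 and RefSeq; alternative exon parts, starts and motifs were chosen after the values were seen. Of 6 motifs searched, 3 are not described. One listed gene and one exon sequence are not reported here. Alternatives were DESeq2 1.42.0 size factors, spike-in scaling, kallisto, posterior mean TPM, TPM over nuclear protein-coding genes, other minimums and each replicate left out. Other steps ran in Python 3.11.15 (scipy 1.17.1, numpy 2.4.6, pandas 2.3.3, matplotlib 3.10.9).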

Additional observations from a re-analysis of the deposited data

How the results depend on the processing

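The number of barrier genes at 10 TPM or more was 6; it became 10 with TPM over nuclear protein-coding genes only, as their total is smaller, and 10 at a threshold of 5 TPM. It was 9 in kallisto, 6 with posterior mean TPM, 5 over complete coding transcripts only (chosen after seeing the data) and 6 without either replicate. The share of 36.7% among nuclear protein-coding genes holds for the main setting only. It was not computed for the other settings, so a higher count there is not a rise particular to the barrier genes. The median of 17.7 TPM became 25.8 in kallisto, 39.9 over nuclear protein-coding genes and 9.52 over complete coding transcripts only; the mean was 20.8. Without 1 replicate the median ranged from 17.2 to 18.1. No barrier gene was over 2-fold apart between replicates under DESeq2 size factors, spike-in scaling, kallisto or deposited TPM. Of all genes tested, 0.755%, 1.2%, 1.42% and 0.425% were, in that order. With shares this low, none among 10 genes is the usual outcome. All 10 pass the minimum of 100 counts, so lower count minimums could not change their result. Spike-in scaling moved the median log2 ratio of all genes from -0.04 to 0.17 and that of the barrier genes to 0.23; the cause was not tested. Leading transcripts with at least 50% of TPM numbered 8, 6 in kallisto, 7 by expected counts, and 7 to 8 without 1 replicate. The share over all genes was not computed for any of these settings. Under spike-in scaling the ratios of Pecam1, Slc2a1, Mfsd2a, Abcg2 and Slco1c1 became positive; under DESeq2 size factors all 10 kept their sign, and in kallisto Abcb1a stood at 0.000 and the others kept theirs. Replicate ratios cannot be given without 1 replicate. No paired analysis was possible because there is only 1 group. Depth limits Abcg2 most, at 258 and 323 counts over 13 models.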
